A study of Homo sapiens with 6 samples.

Results

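Retinoic acid signalling was followed through 10 genes of the count table, chosen by symbol from 35238 symbols: the retinaldehyde dehydrogenases ALDH1A1, ALDH1A2 and ALDH1A3, the hydroxylases CYP26A1 and CYP26B1, the binding proteins CRABP1 and CRABP2, and the receptors RARA, RARB and RARG. All 10 symbols were found, and 9 passed the filter on low counts. The set was drawn up because ALDH1A2 was known to be low in these knockout libraries, so its values are given as a description with no test. RNA had been sequenced from HAP1, a near-haploid human cell line derived from the leukaemia line KBM-7, in 3 libraries of DEGS1 knockout cells and 3 libraries of wildtype cells. Both genotypes were untreated and were grown and collected in the same way. DEGS1 encodes the desaturase that makes ceramide from dihydroceramide, and the labels do not say how many knockout clones were used or whether replicates were separate cultures. P-values therefore speak only of variation among these 6 libraries, part of which may be technical.

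Retinoic acid is made from retinol (vitamin A) in consecutive oxidations. Retinol dehydrogenases make retinaldehyde, ALDH1A enzymes oxidise it to retinoic acid, and CYP26 enzymes hydroxylate retinoic acid for removal. CRABP proteins carry it inside the cell, and RAR receptors, paired with RXR receptors, bind DNA at retinoic acid response elements and raise transcription when retinoic acid is bound. RARB, CYP26A1 and CRABP2 are themselves known targets of this pathway. The question behind the set was whether low ALDH1A2 went together with low levels of retinoic acid targets.

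The DNA that the receptors bind is shown first, because it separates RARB and CYP26A1 from the other genes of the set. The classical element is a direct repeat of a half-site with a spacing of 5 bases (DR5). RefSeq promoter windows of GRCh38.p14, from 250 bases before to 50 bases after each annotated start, were searched on both strands for the half-site AGGTCA or its variants, namely AGTTCA, further GGTTCA, and lastly GGGTCA, followed by any 5 bases and again by any of these 4 half-sites. All 10 genes had at least 1 window. A DR5 was found in 31 of 35116 windows (0.088%), and 2 of the 10 genes, RARB and CYP26A1, held one. Of the 33 other retinoic acid targets described below that had a window, 0 held one. Direct repeats with a spacing of 1 base or 2 bases were in 46 and 14 windows (0.131% and 0.04%) and in none of the 10 genes. The elements of RARB and CYP26A1 are printed with those of 3 expressed genes outside the set, each read on the strand that carries the repeat, with the half-sites in capitals and 6 bases on either side.
RARB: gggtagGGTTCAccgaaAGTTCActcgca
CYP26A1: acaattAGTTCAcccaaAGTTCAtcttta
COL24A1: cactcaAGTTCActtgcGGTTCAaaggcg
PHF8: cacttcAGTTCAaatacAGTTCAaggatt
PANK2: aggctaAGGTCAgccgcGGTTCAagccct
The RARB run lies at chr3:25428204-25428232 on the plus strand and the CYP26A1 run at chr10:93073797-93073825 on the minus strand. Those of COL24A1 (chr1:86156728-86156756), PHF8 (chrX:54045150-54045178) and PANK2 (chr20:3888897-3888925) are on the plus strand. The RARB repeat begins 53 bases before 1 of the gene's 4 annotated starts, and the CYP26A1 repeat 90 bases before 1 of its 2. A match of letters is a description and not evidence that a receptor was bound.

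Levels are given as CPM, the count of a gene relative to the library size after scaling by edgeR's trimmed mean. Total counts ran from 19389644 to 27659835 in the knockout libraries and from 17322756 to 28988522 in the wildtype libraries. DEGS1 itself was low in every knockout library, with 8.3% of the wildtype level left. Wildtype replicate 2 stood apart: without it 1835 of 17305 tested genes were called higher and 1990 lower, against 256 and 500 with all libraries. Counts of calls that changed when it was left out are given with and without it. Those without it are to be read beside the 1835 and 1990. Adjusted p-values come from edgeR's quasi-likelihood test over 16954 genes with Benjamini-Hochberg adjustment, and a gene was called under 0.05. That test called 4.46% of all genes, 1.51% higher and 2.95% lower in the knockout. Of the 8 tested genes of the set other than ALDH1A2, 1 was called higher and 0 lower, and the groups did not overlap in 2, 1 higher and 1 lower, against 20.8% of all tested genes (9.24% higher and 11.6% lower). Nothing is read from these counts, since this contrast led to the choice of the genes. Fold changes are knockout over wildtype, with a standard error (SE) or a 95% interval.

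**Figure D1:**
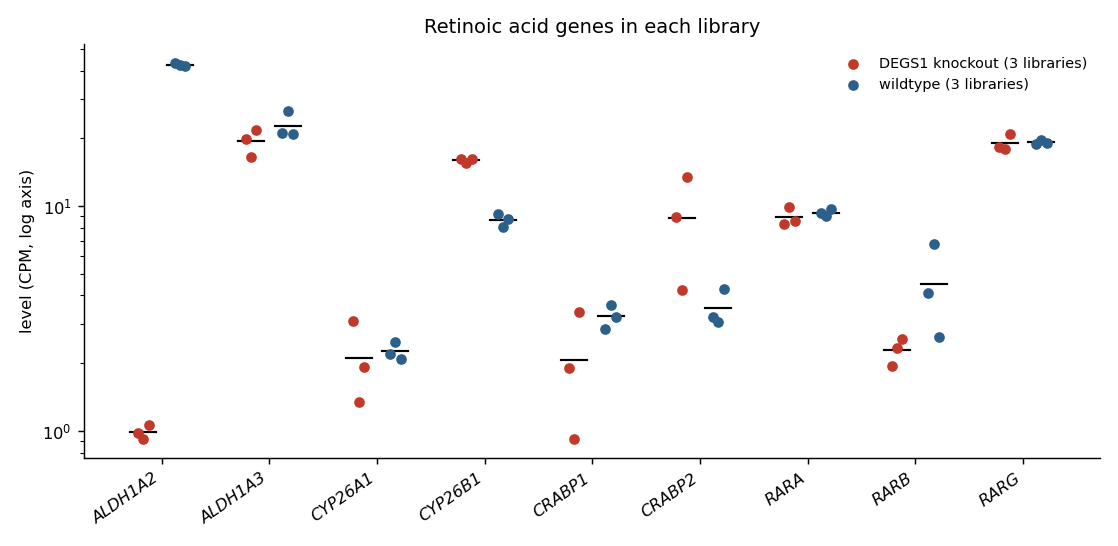
Level of each tested gene of the set in every library (CPM, log axis), with the DEGS1 knockout in red left of the wildtype in blue and a bar at each mean of 3 libraries. ALDH1A2 lies near 1 CPM in the knockout libraries and above 41 CPM in the wildtype libraries, while the groups overlap in RARA and RARG.

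Among the enzymes that make retinoic acid, ALDH1A2 was nearly absent from the knockout and ALDH1A3 remained. ALDH1A2, the retinaldehyde dehydrogenase that supplies much of the retinoic acid of the embryo, stood at 0.975, 0.918 and 1.06 CPM in the knockout libraries, against 43.3, 42.3 and 41.9 CPM in the wildtype libraries. These are 19, 24 and 29 counts in the knockout, against 1101, 1138 and 782 counts in the wildtype. The groups were far apart, with little spread within either. The knockout mean was 2.31% of the wildtype mean, a log2 fold change of -5.42 (standard error 0.15), and it lay between -5.48 and -5.35 in 17 other settings. In bulk RNA, fewer cells that express a gene and less of its RNA per cell cannot be told apart.

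ALDH1A3, the retinaldehyde dehydrogenase known from the eye and nasal region, had 19.9, 16.5 and 21.7 CPM in the knockout, against 21, 26.3 and 20.9 CPM in the wildtype. The groups overlapped, and the log2 fold change was -0.23 (interval -0.55 to 0.09, edgeR adjusted p = 0.477). ALDH1A1, the third enzyme of the family, was at the limit of detection, with 0, 1 and 0 counts in the knockout and 1, 3 and 0 counts in the wildtype. No count exceeded 3, which corresponds to 0.109 to 0.161 CPM per library, so no fold is given. Per kilobase of the longest GENCODE transcript, the summed level of the 3 ALDH1A genes was 5.31, 4.44 and 5.78 CPM per kb in the knockout, against 15.9, 17.1 and 15.6 CPM per kb in the wildtype. ALDH1A2 made up 4.48%, 5.04% and 4.46% of that sum in the knockout libraries, against 66.3%, 60.5% and 65.7% in the wildtype libraries. In the knockout nearly all of the ALDH1A transcript measured was therefore ALDH1A3.

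The tested genes around ALDH1A2 on chromosome 15, 5 on either side, had log2 fold changes between -0.97 and 0.40. The nearest on one side, POLR2M, had 73.5 CPM in the knockout and 73.8 CPM in the wildtype, a log2 fold change of -0.01 (standard error 0.13, edgeR adjusted p = 0.984) whose sign changed with the scaling. On the other LIPC, hepatic lipase, had -0.37 (standard error 0.43, edgeR adjusted p = 0.711) at 0.784 CPM in the knockout and 1.03 CPM in the wildtype. Of the 10 neighbours 1 was called, ZNF280D, a zinc finger gene, lower with a log2 fold change of -0.49 (standard error 0.11, edgeR adjusted p = 0.0212). The median of the 379 well expressed genes of chromosome 15 differed from that of all such genes by -0.019 on the log2 scale.

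The tested genes with a mean of at least 5 CPM whose log2 CPM followed ALDH1A2 most closely over the 6 libraries were MB21D1 (Pearson's r 0.9997), IFI16 (0.9983), CWF19L1 (0.9978), CROT (0.9976) and CTDSPL (0.9971). All 5 were low in the 3 knockout libraries and high in the 3 wildtype libraries, which alone gives a high r, so the values are a description. MB21D1, the DNA sensor also called cGAS, had 1.39, 1.26 and 1.46 CPM in the knockout, against 28.6, 31.1 and 27.3 CPM in the wildtype. IFI16, another DNA sensor, had 0.103, 0.115 and 0.182 CPM in the knockout, against 10.9, 14.4 and 11.5 CPM in the wildtype. Its knockout values are only 2, 3 and 5 counts. CROT, the peroxisomal carnitine octanoyltransferase, had 1.44, 1.64 and 1.82 CPM in the knockout, against 9.36, 9.29 and 9.37 CPM in the wildtype.

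**Figure D2:**
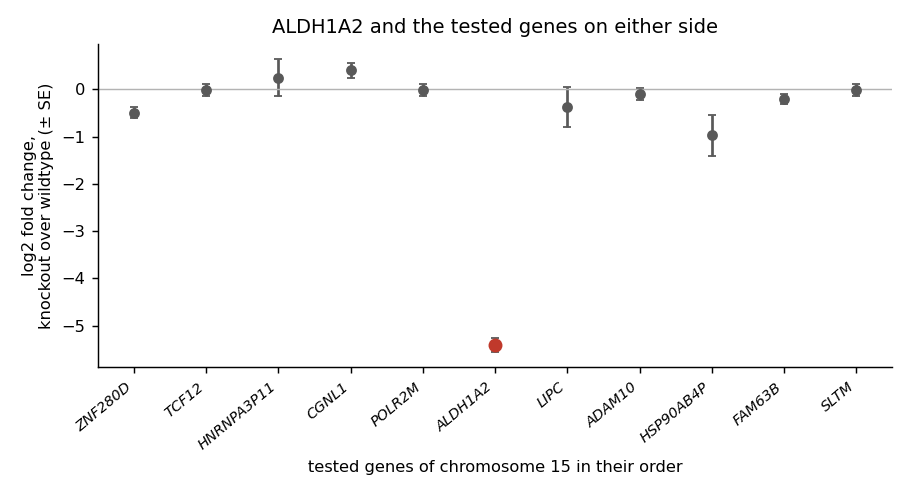
Log2 fold change, knockout over wildtype, of ALDH1A2 (red) and of the 5 nearest tested genes on each side in RefSeq order, with SE as error bars (3 libraries per genotype). ALDH1A2 lies at -5.42, and its neighbours lie between -0.97 and 0.40.

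Of the enzymes that clear retinoic acid, CYP26B1 was higher in the knockout and CYP26A1 did not pass the test. CYP26B1 had 16.2, 15.5 and 16.1 CPM in the knockout libraries, against 9.16, 8.06 and 8.78 CPM in the wildtype libraries. Every knockout library was above every wildtype library, and replicates lay close together. The mean was 15.9 ± 0.364 CPM in the knockout and 8.67 ± 0.559 CPM in the wildtype (SD, n = 3 each), which is a log2 fold change of 0.88 (standard error 0.14, edgeR adjusted p = 0.00338). The call held in all 17 other settings, with edgeR, DESeq2 or limma adjusted p from 8.02e-06 to 0.0278, and 0 of its 10 tested neighbours on chromosome 2 were called.

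CYP26A1, the hydroxylase whose window holds the DR5 printed above, had 3.08, 1.34 and 1.93 CPM in the knockout, against 2.2, 2.49 and 2.09 CPM in the wildtype. The knockout libraries spread on both sides of the wildtype libraries. The log2 fold change was -0.11 (interval -0.82 to 0.60, edgeR adjusted p = 0.891). It was -0.45 without knockout replicate 1 (edgeR adjusted p = 0.615) and 0.14 without knockout replicate 2 (edgeR adjusted p = 0.885). Per kilobase, CYP26B1 stood at 3.37 CPM per kb in the knockout and 1.83 in the wildtype, and CYP26A1 at 0.943 CPM per kb in the knockout and 1.01 in the wildtype.

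The carriers gave values in opposite directions, neither of them called. CRABP2, which delivers retinoic acid to the receptors, had 8.93, 4.21 and 13.5 CPM in the knockout, against 3.22, 3.05 and 4.29 CPM in the wildtype. Knockout replicates 1 and 3 were above every wildtype library, and knockout replicate 2 fell within their range. The log2 fold change was 1.34 (interval 0.52 to 2.16, edgeR adjusted p = 0.0783). Without knockout replicate 2 it was 1.69 and passed (edgeR adjusted p = 0.00866), and without knockout replicate 3 it was 0.90 (edgeR adjusted p = 0.326). With all libraries CRABP2 passed in the DESeq2 Wald test (DESeq2 adjusted p = 0.00185) and with length and GC trends removed (edgeR adjusted p = 0.0418). Of its neighbours on chromosome 1, NES, the neural filament gene nestin, was called higher (log2 fold change 0.81 with standard error 0.14, edgeR adjusted p = 0.00686) and ISG20L2, a nucleolar exonuclease, lower (-0.43, standard error 0.11, edgeR adjusted p = 0.0431).

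CRABP1, a carrier held to pass retinoic acid on for breakdown, had 1.9, 0.918 and 3.39 CPM in the knockout, against 2.83, 3.64 and 3.21 CPM in the wildtype. Knockout replicate 3 lay among the wildtype libraries and the other knockout libraries below them. Its log2 fold change was -0.64 (interval -1.49 to 0.22, edgeR adjusted p = 0.457). It was -0.27 without knockout replicate 2 (edgeR adjusted p = 0.751) and -1.21 without knockout replicate 3 (edgeR adjusted p = 0.199). Knockout replicate 2 held the lowest knockout value of every tested gene of the set other than RARA and RARB.

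**Figure D3:**
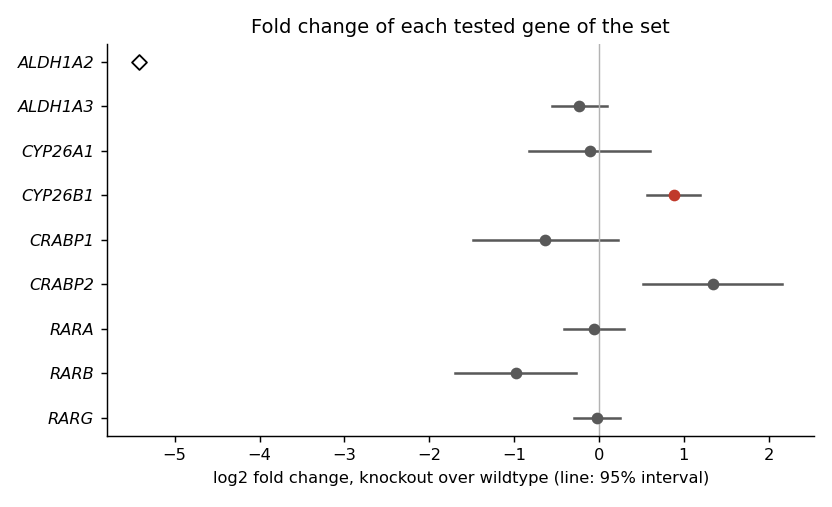
Log2 fold change, knockout over wildtype, of the 9 tested genes of the set with 95% intervals (3 libraries per genotype). ALDH1A2, the open diamond, chose the set and has no interval, CYP26B1, in red, was called in the fit over all genes, and the intervals of ALDH1A3, CYP26A1, CRABP1, RARA and RARG include 0.

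The receptors RARA and RARG did not pass the test and had narrow intervals. RARG had 18.2, 17.9 and 20.8 CPM in the knockout, against 18.9, 19.6 and 19.1 CPM in the wildtype, a log2 fold change of -0.02 (interval -0.29 to 0.25, edgeR adjusted p = 0.958). RARA had 8.31, 9.94 and 8.6 CPM in the knockout, against 9.32, 9.03 and 9.69 CPM in the wildtype, a log2 fold change of -0.06 (interval -0.41 to 0.29, edgeR adjusted p = 0.882). The groups overlapped in both, and the sign of RARG changed with length and GC trends removed. RARG was the most abundant of the 3 RAR transcripts per kilobase, at 6.41 CPM per kb in the knockout and 6.49 in the wildtype.

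RARB, the receptor gene that retinoic acid induces through the element printed above, had 1.95, 2.33 and 2.55 CPM in the knockout, against 4.09, 6.76 and 2.62 CPM in the wildtype. The groups did not overlap, but wildtype replicate 3 lay next to the highest knockout library, and wildtype replicate 2 was well above the other wildtype libraries. The mean was 2.28 ± 0.305 CPM in the knockout and 4.49 ± 2.1 CPM in the wildtype (SD, n = 3 each). The log2 fold change of -0.98 (standard error 0.33, interval -1.70 to -0.27) did not pass the test (edgeR adjusted p = 0.14). It passed without wildtype replicate 3, at -1.24 (edgeR adjusted p = 0.0273), and was -0.56 without wildtype replicate 2 (edgeR adjusted p = 0.136). Its neighbour THRB, the beta receptor of thyroid hormone, went the other way and was called higher, with a log2 fold change of 0.52 (standard error 0.11, edgeR adjusted p = 0.023).

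**Figure D4:**
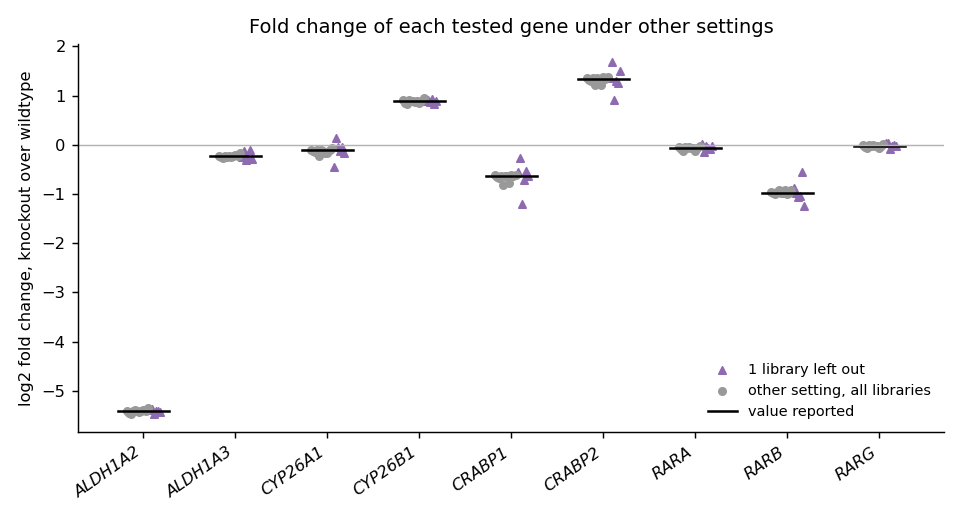
Log2 fold change, knockout over wildtype, of each tested gene of the set in the fit reported (bar), in 11 other settings with all libraries (grey circles) and with 1 library left out (purple triangles). ALDH1A2 and CYP26B1 hardly moved, whereas CRABP1, CRABP2, RARB and CYP26A1 moved with single libraries.

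Upstream of retinaldehyde, 23 of 38 listed genes of retinol handling were tested. Of these 1 was called higher and 0 lower, or 4.35%, against 4.46% of all genes. Without wildtype replicate 2, 2 of 24 were called higher and 4 lower, where 1835 and 1990 of all 17305 tested genes were. The list had 0 called higher without knockout replicates 1 or 3 or wildtype replicate 1, and 1 called lower without wildtype replicate 1 and in the DESeq2 Wald test. The gene called was STRA6, the membrane receptor that takes up retinol, with 9.44, 6.84 and 9.69 CPM in the knockout, against 4.99, 3.64 and 5.09 CPM in the wildtype. Its log2 fold change was 0.92 (standard error 0.22, edgeR adjusted p = 0.0343). STRA6 was not called in 6 of 17 other settings, which include the fits without knockout replicate 1 (edgeR adjusted p = 0.132), without knockout replicate 3 (0.191) and without wildtype replicate 1 (0.0847).

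The retinol dehydrogenase RDH10, which makes retinaldehyde in the embryo, had a log2 fold change of -0.15 (standard error 0.12, edgeR adjusted p = 0.566). DHRS3, which turns retinaldehyde back into retinol, had one of -0.20 (standard error 0.15, edgeR adjusted p = 0.548). LRAT, which stores retinol as an ester, had one of -0.39 (standard error 0.28, edgeR adjusted p = 0.529).

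Other genes of clearance and delivery and other aldehyde dehydrogenases gave no calls, where 4.46% of all genes were called. Of 6 tested genes of clearance and delivery, edgeR called 0. Before adjustment 0 had p under 0.05, against 16.5% of all genes. CYP3A5, a broad-range hydroxylase and the gene with the smallest p of that list, had a log2 fold change of -0.46 (standard error 0.29, edgeR adjusted p = 0.5). Without wildtype replicate 2 it was -0.75 and passed (edgeR adjusted p = 0.000367). Of 15 tested aldehyde dehydrogenases outside the set, edgeR called 0, and 2 had p under 0.05 before adjustment, both lower in the knockout, where 9.81% of all genes were lower at that level. Without wildtype replicate 2, 1 of the 15 was called higher and 2 lower, where 1835 and 1990 of all 17305 tested genes were. The smallest p was that of ALDH3A1, at 0.502 CPM in the knockout and 1.16 CPM in the wildtype (log2 fold change -1.23 with standard error 0.37, edgeR adjusted p = 0.102). ALDH3A2, the fatty aldehyde dehydrogenase that also acts on aldehydes from sphingolipid breakdown, had a log2 fold change of -0.24 (standard error 0.12, edgeR adjusted p = 0.359).

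Among the receptors' partners and coregulators, 24 of 26 listed genes were tested, 3 were called higher and 0 lower (12.5%, against 4.46% of all genes), with a median log2 fold change of -0.01 against -0.02 over all tested genes. Without wildtype replicate 2, 6 were called higher and 4 lower, where 1835 and 1990 of all 17305 tested genes were. Without knockout replicates 1 or 3 or wildtype replicate 1, 1 coregulator was called higher. The RXR partners themselves gave no calls. RXRA had 21 ± 0.576 CPM in the knockout and 19.6 ± 3.49 CPM in the wildtype, and RXRB 22.3 ± 2.03 CPM in the knockout and 21.7 ± 2.04 CPM in the wildtype (SD, n = 3 each). Their log2 fold changes were 0.10 and 0.05 (edgeR adjusted p = 0.766 and 0.888).

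NRIP1, a corepressor that binds liganded nuclear receptors and is itself induced by retinoic acid, rose in the knockout. It had 30.2, 34.7 and 25.9 CPM in the knockout libraries, against 18.4, 16.3 and 17.8 CPM in the wildtype libraries, with no overlap. The log2 fold change was 0.79 (standard error 0.14, edgeR adjusted p = 0.00571), and the call held in all 17 other settings. PRAME, a repressor of retinoic acid receptors known from tumours, rose as well, with 4.72, 3.9 and 5.32 CPM in the knockout, against 2.2, 1.93 and 1.98 CPM in the wildtype (log2 fold change 1.19 with standard error 0.24, edgeR adjusted p = 0.0146). PRAME was not called without knockout replicate 1 (edgeR adjusted p = 0.0618), knockout replicate 3 (0.113) or wildtype replicate 1 (0.0612). ZNF423, a zinc finger cofactor of the receptors, had 3.9, 2.83 and 2.84 CPM in the knockout, against 1.38, 1.75 and 1.34 CPM in the wildtype, and passed narrowly (log2 fold change 1.09 with standard error 0.28, edgeR adjusted p = 0.0481). ZNF423 was not called in 9 of 17 other settings. These include the fits without any 1 library other than wildtype replicate 2, with edgeR adjusted p of 0.215, 0.0767 and 0.136 without knockout replicates 1, 2 and 3 and of 0.228 and 0.135 without wildtype replicates 1 and 3.

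Genes outside the set that retinoic acid is known to induce moved in both directions. Of 50 listed, 40 were tested, 4 were called higher in the knockout and 1 lower (12.5%, against 4.46% of all genes, of which 1.51% higher and 2.95% lower). Their median log2 fold change was -0.10, against -0.02 over all tested genes, with 17 positive and 23 negative values. Before adjustment, 6 were higher and 7 lower at p under 0.05, where edgeR put 16.5% of all tested genes at that level (6.69% higher and 9.81% lower). STRA6 and NRIP1, described above, belong to the 4 that rose. NR2F1, an orphan nuclear receptor of neural development, rose to 12.3, 14.8 and 11.9 CPM in the knockout, against 7.55, 6.65 and 8.95 CPM in the wildtype (log2 fold change 0.76 with standard error 0.17, edgeR adjusted p = 0.0297). LAMB1, a laminin chain induced when embryonal carcinoma cells are given retinoic acid, had 102, 73.8 and 99.5 CPM in the knockout, against 58, 69 and 50.3 CPM in the wildtype (log2 fold change 0.63 with standard error 0.15, edgeR adjusted p = 0.0363).

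RARRES3, a gene named for its response to retinoic acid receptor ligands, was the 1 that fell. It had 0.923, 1.15 and 1.28 CPM in the knockout, against 3.07, 2.04 and 2.46 CPM in the wildtype, a log2 fold change of -1.17 (standard error 0.30, edgeR adjusted p = 0.0489). RARRES3 lost its call without any 1 library other than wildtype replicate 2, with edgeR adjusted p of 0.211, 0.114 and 0.152 without knockout replicates 1, 2 and 3 and of 0.291 and 0.0959 without wildtype replicates 1 and 3. NR2F1 was not called without knockout replicates 1 (edgeR adjusted p = 0.0751), 2 (0.0956) or 3 (0.0841) or wildtype replicate 1 (0.125). LAMB1 was not called without knockout replicates 1 (edgeR adjusted p = 0.145) or 3 (0.178) or wildtype replicates 1 (0.112) or 3 (0.0799). Without wildtype replicate 2, 7 targets were called higher and 5 lower, where 1835 and 1990 of all 17305 tested genes were. Without each other library 1 to 4 targets were called higher and 0 or 1 lower.

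The HOX genes of the list, which retinoic acid induces in embryonic axis patterning, gave no calls. Of 9 tested, edgeR called 0, against 4.46% of all genes. Before adjustment 0 had p under 0.05, against 16.5% of all genes. Log2 fold changes lay between -0.40 and 0.19. Levels were low, from a mean of 0.837 CPM (HOXA4, knockout) to 7.54 CPM (HOXB4, knockout). Nothing is read from the absence of calls among so few genes. TGM2, a transglutaminase with a retinoic acid response element, had a log2 fold change of -0.29 (standard error 0.27, edgeR adjusted p = 0.637). Of the genes of the set named above as known targets, none was called. RARB (-0.98) and CYP26A1 (-0.11, standard error 0.32) had negative values and CRABP2 (1.34) a positive one. The sign of CYP26A1 changed without knockout replicate 2. That none was called rests on which genes are named as targets. CYP26B1, a CYP26 enzyme like CYP26A1 but not counted among these, was called higher (0.88, edgeR adjusted p = 0.00338).

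**Figure D5:**
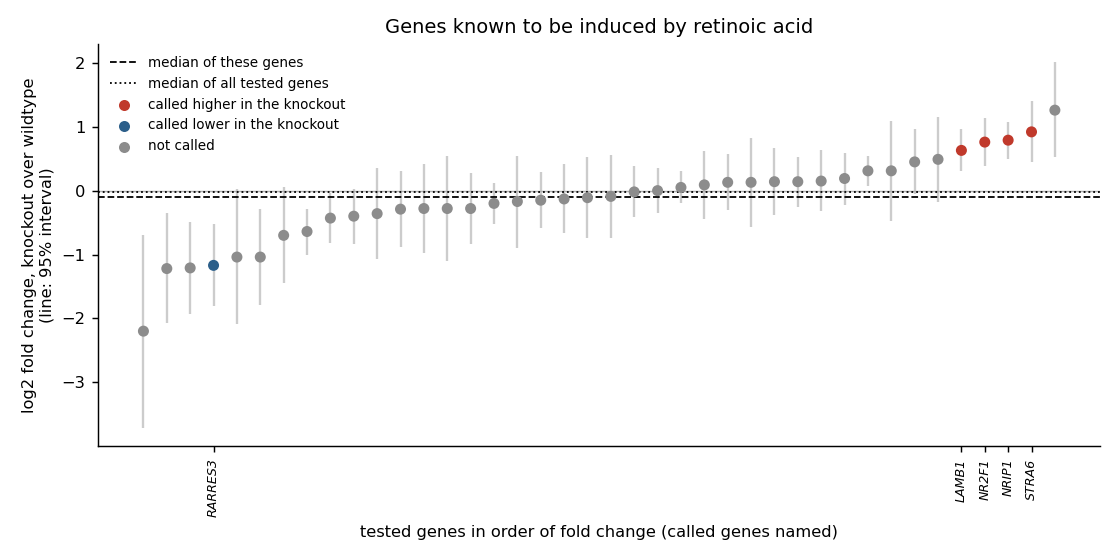
Log2 fold change, knockout over wildtype, of 40 tested genes known to be induced by retinoic acid, in order of size, with 95% intervals (3 libraries per genotype) and the called genes named. Values lie on both sides of 0, 4 genes are called higher (red) and 1 lower (blue), and the median of -0.10 compares with -0.02 over all tested genes.

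The DR5 was also used to look beyond genes picked by name. Besides RARB and CYP26A1, 8 tested genes held a DR5 in a window, 2 with a positive and 6 with a negative log2 fold change and a median of -0.16, against 8017 positive and 8937 negative values over all tested genes. Before adjustment 3 had p under 0.05, all lower (COL24A1, PHF8 and ATXN1L), against 16.5% of all genes in either direction and 9.81% lower. Of these 8, 1 was called, against 4.46% of all genes. Without wildtype replicate 2, 3 were called, all lower, where 1990 of all 17305 tested genes were called lower. The gene called was COL24A1, a fibrillar collagen chain, whose repeat begins at base 23 after the start. It had 1.03, 0.918 and 1.57 CPM in the knockout, against 2.56, 2.56 and 3.27 CPM in the wildtype (log2 fold change -1.24 with standard error 0.30, edgeR adjusted p = 0.0413). The call was lost without knockout replicates 1 (edgeR adjusted p = 0.172), 2 (0.127) or 3 (0.0637) and without wildtype replicates 1 (0.113) or 3 (0.126). With all libraries it was also lost with upper-quartile scaling (edgeR adjusted p = 0.0627), library size only (0.0709) and chromosome medians removed (0.0505). PHF8, a histone demethylase, had 50.4, 60.5 and 55 CPM in the knockout, against 75.6, 62.6 and 80.3 CPM in the wildtype (log2 fold change -0.40 with standard error 0.12, edgeR adjusted p = 0.107). ATXN1L, a relative of the ataxin gene ATXN1, had 49.6, 57.9 and 47.5 CPM in the knockout, against 60.6, 63.5 and 59.6 CPM in the wildtype (log2 fold change -0.25 with standard error 0.11, edgeR adjusted p = 0.284). The groups did not overlap in COL24A1, PHF8 and ATXN1L, where 11.6% of all tested genes were lower without overlap. PANK2, a pantothenate kinase, had a log2 fold change of 0.07 (standard error 0.10, edgeR adjusted p = 0.764).

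The labelled cell line and the other cell types it could hold were checked by marker lists. Calls in these short lists are to be read beside 4.46% of all genes (1.51% higher and 2.95% lower). Those without wildtype replicate 2 stand beside 1835 higher and 1990 lower of all 17305 tested genes. Of 9 blood markers, SPI1, MPO and HBG1 had no count in any library and GATA1 had at most 3, and the summed level was 7.87 to 9.37 CPM in the knockout and 11.8 to 14.2 CPM in the wildtype. Of 4 tested, 1 was called lower: KIT, a growth factor receptor, at 4.03 CPM in the knockout and 8.09 CPM in the wildtype (log2 fold change -1.01, edgeR adjusted p = 0.023), which was not called without knockout replicates 1 or 3 or wildtype replicate 1. CD34 had 1.73 CPM in the knockout and 1.13 CPM in the wildtype. Fibroblast markers summed to 10.3 to 13.4 CPM in the knockout and 8.58 to 13.2 CPM in the wildtype, with 0 of 5 tested called, and 1 higher without wildtype replicate 2. Epithelial markers summed to 107 to 149 CPM in the knockout and 114 to 130 CPM in the wildtype, with EPCAM and CLDN1 called lower among 7 tested and KRT19 at 0. CLDN1 had 0.649 CPM in the knockout and 7.49 CPM in the wildtype (log2 fold change -3.5, edgeR adjusted p = 4.78e-05). EPCAM had 0.275 and 2.16 CPM (-3.01, edgeR adjusted p = 0.00233). The more abundant KRT18 had the opposite sign, at 70.8 CPM in the knockout and 51.1 CPM in the wildtype (0.47, edgeR adjusted p = 0.0794). Without wildtype replicate 2 or knockout replicate 2, 1 epithelial marker was also called higher, where 1835 of 17305 and 230 of 17304 tested genes were. Neural markers summed to 627 to 700 CPM in the knockout and 479 to 578 CPM in the wildtype, with MAP2, NES and SNAP25 called higher among 6 tested. Without knockout replicate 3, 1 of these 6 was called. TUBB3 (118 CPM in the knockout and 131 CPM in the wildtype) and SOX2 (188 CPM in the knockout and 197 CPM in the wildtype) did not share that direction. The sums of the blood and neural lists thus differed between genotypes through a few of their genes. Those of the epithelial list overlapped, although EPCAM and CLDN1 were called lower. The part of these lists in the values above was not tested.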

How the data were processed

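The authors deposited raw counts, whole numbers for each of 35238 gene symbols. The submitters' processing notes name bcl2fastq 2.20 and hg19, and per the labels' protocols the libraries were stranded total RNA. Which aligner, counter and strand setting made the table is not given in the sources used here. Overlapping and antisense genes could therefore not be told apart. The test was edgeR 4.0.16 (R 4.3.3) on genotype alone, with trimmed mean of M values scaling, edgeR's expression filter and robust dispersion. Intervals use the SE and the test's degrees of freedom. The alternatives used DESeq2 1.42.0 and limma 3.58.1 as well. Counting floors cover counting error only. Promoter windows and gene order came from RefSeq (GRCh38.p14), and lengths from the longest transcript in GENCODE 29. In simulated data of this comparison with 16669 genes tested, 26.9% of 67 genes changed 1.5-fold, 52.3% of 65 changed 2-fold and 95.3% of 64 changed 4-fold were recovered, with 5 false calls. The simulated counts were drawn independently for each gene and library. They hold no deviation shared by many genes of 1 library, so these shares need not apply to the real libraries. Genes named are the 10 of the set, up to 6 called genes (or the smallest p) of each of 5 lists, the nearest tested genes beside ALDH1A2, the genes most like it, and textbook targets, of which DHRS3, STRA6 and TGM2 are given and others are not reported here. The other genes named were added after their values were seen. The members and lists were chosen with earlier results of these data known. No library duplicated another (chi-square per degree of freedom 12.6 to 51.3).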

Additional observations from a re-analysis of the deposited data

How the results depend on the processing

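With all libraries, the counts of genes called higher and lower (256 and 500) moved by over 1.5 times to 385 higher in the DESeq2 Wald test, 390 higher with the replicate block, 385 higher with length and GC trends removed (chosen after seeing the data), and 112 and 263 at an adjusted p under 0.01. Of the genes called with trends removed, 46.6% were higher in the knockout, against 33.9% of those called in the fit reported. Leaving out 1 library gave 113 to 1835 higher and 267 to 1990 lower, with 1835 and 1990 without wildtype replicate 2, 141 and 283 without knockout replicate 1, 113 and 267 without knockout replicate 3 and 129 and 312 without wildtype replicate 1. Retinoic acid targets called higher (4) became 2 with upper-quartile scaling and limma voom, and 1 with library size only and at 0.01. Those called lower (1) became 0 in these 4 settings and with a filter of 1 CPM in 3 libraries, 2 with chromosome medians removed, 3 in the DESeq2 Wald test, and 4 with no filter and with the replicate block. Leaving out 1 library gave 1 to 7 targets higher (7 without wildtype replicate 2, 1 without knockout replicate 1, knockout replicate 3 or wildtype replicate 1) and 0 to 5 lower (5 without wildtype replicate 2, 0 without knockout replicates 2 or 3 or wildtype replicate 3). Values near 0 changed sign: RARG to 0.02 with trends removed and -0.09 to 0.03 without 1 library, RARA -0.14 to 0.01 and CYP26A1 -0.45 to 0.14 without 1 library, and POLR2M to 0, 0.01 or 0.07 in 6 settings with all libraries and -0.09 to 0.13 without 1 library. The cause of these changes was not tested. Columns of the same replicate number share a code between genotypes, whose meaning the labels do not give. Correlations of deviations between libraries of the same number were 0.254, 0.408 and -0.159. Between different numbers they ran from -0.543 to 0.545. With 3 libraries per genotype these values cannot decide whether the libraries were paired. With the replicate block CRABP2 (1.21, edgeR adjusted p = 0.0159) passed and LAMB1 (0.63, 0.0925) did not, and 1 gene of retinol handling and 1 other aldehyde dehydrogenase were called lower. Depth limits ALDH1A1, which had at most 3 counts in a library.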

Other observations

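BHLHE40, a transcriptional repressor first described as induced by retinoic acid, had 7.13, 7.57 and 9.37 CPM in the knockout, against 12.3, 13.7 and 11.6 CPM in the wildtype, and missed the threshold narrowly (log2 fold change -0.64, SE 0.17, edgeR adjusted p = 0.0542). PLAT, tissue plasminogen activator, had 7.8, 3.67 and 7.33 CPM in the knockout, against 2.71, 1.63 and 3.54 CPM in the wildtype, with the opposite sign (log2 fold change 1.26, SE 0.34, edgeR adjusted p = 0.0637). GBX2, a homeobox gene of the midbrain and hindbrain boundary, stood at 0.359, 0.0382 and 0.0364 CPM in the knockout, against 0.511, 0.669 and 0.643 CPM in the wildtype (edgeR adjusted p = 0.113). These are 7, 1 and 1 counts in the knockout, near the limit of detection, against 13, 18 and 12 counts in the wildtype. EP300, a coactivator of many nuclear receptors, had 102, 110 and 88.5 CPM in the knockout, against 170, 98.5 and 190 CPM in the wildtype. Its relative CREBBP had 78.5, 79.4 and 57.3 CPM in the knockout, against 120, 65.4 and 139 CPM in the wildtype. In both genes wildtype replicate 2 lay within the range of the knockout libraries and the other wildtype libraries above it.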
